A study of Mus musculus with 54 samples.

Results

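Round spermatids (RS) and spermatocytes (SC) from BORIS knockout (BORIS KO) mice were compared by RNA-seq, which asks how the transcriptome differs between meiotic and postmeiotic male germ cells that lack BORIS. The comparison holds 6 of the 54 samples of the series, namely 3 RS and 3 SC libraries, chosen by the genotype and cell type in their titles. BORIS KO mice carry both wild-type copies of Ctcf and no functional copy of Boris (Ctcf+/+Boris-/-), a gene listed as Ctcfl. The change between the cell types was set beside that in wild-type mice (WT, Ctcf+/+Boris+/+, 3 RS and 2 SC libraries) and in the combined mutant (CM, Ctcf+/-Boris-/-, 3 and 3), which shares the Boris deletion and lacks 1 copy of Ctcf. All mice were of the C57BL/6 strain and 3 months old. The deletion is constitutive, so every cell of the animal lacks BORIS. Cell suspensions combined the testes of 4 mice, and RS and SC were purified by centrifugal elutriation and then by sorting of cells stained for DNA content. The study estimated a lower purity for SC than for RS. The labels do not say whether replicates were separate preparations, so p-values measure the spread between these libraries, which may be technical.

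In meiotic prophase, spermatocytes pair their homologous chromosomes along the synaptonemal complex, break and repair their DNA to form crossovers, and silence the unpaired X and Y chromosomes in the sex body. After the meiotic divisions the haploid round spermatids build the acrosome and the tail, transcribe many genes that are used only in sperm, and later exchange histones for transition proteins and protamines. CTCF binds DNA through an array of zinc fingers and anchors the loops of chromatin in most cell types. BORIS arose as a copy of the CTCF gene, recognizes the same motif and is made mainly in the testis.

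Total counts ran from 64672742 to 88946702 reads per BORIS KO library, and 17672 to 18978 genes had a count. Levels are given as CPM, counts scaled to the library size after TMM normalization, which are not divided by gene length and are therefore compared only within a gene. Ctcfl itself was counted at 2.06, 2.16 and 2.38 CPM in the RS libraries, from 149, 175 and 184 reads, and from 1, 8 and 0 reads in the SC libraries. In WT it stood at 2.80, 4.91 and 3.26 CPM in RS and at 0.0808 and 0.0667 CPM in SC. A count per gene does not say on which exons the reads fall, so these reads do not check the deletion. Ctcf stood at 26.9, 25.2 and 28.9 CPM in RS and 30.2, 32.6 and 30.4 CPM in SC, a log2 change of -0.18 (SE 0.081, edgeR adjusted p = 0.0686). RS replicate 3 stood apart from the other RS libraries. In it 134 of 15516 genes were more than 2-fold above the mean of replicates 1 and 2 and 24 were more than 2-fold below, while replicates 1 and 2 were more than 2-fold apart for 24 genes. Among the SC libraries replicate 1 stood apart. Its correlations of log2 CPM with SC replicates 2 and 3 were 0.9973 and 0.9971, against 0.9993 between SC replicates 2 and 3.

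Between the cell types 4110 of the 15516 genes tested were higher in RS (26.5%) and 3330 were lower (21.5%), at an adjusted p below 0.001 and a fold change above 2 in edgeR's quasi-likelihood test. The median log2 change was 3.83 over the genes called higher, -1.78 over those called lower and 0.00337 over all genes tested. All 7440 called genes had 3 RS values on one side of the 3 SC values, as had 13183 (85.0%) of the genes tested, so that for each gene said below to rise or fall the groups did not overlap. When one spread was estimated over all 4 genotypes the counts were 2105 higher and 2180 lower. In bulk RNA, fewer cells of a type and less RNA per cell cannot be told apart.

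The labelled cell types were checked against their markers. Of 12 round spermatid markers 10 were called higher in RS (83.3%) and 0 lower, with a median log2 change of 5.14. Of 11 spermatocyte markers measured 7 were lower in RS (63.6%) and 0 higher, with a median of -1.78. Of all genes tested 26.5% were higher and 21.5% lower. Acrv1, which encodes a protein of the acrosomal matrix, was at 141, 149 and 155 CPM in RS against 2.85, 4.64 and 3.94 CPM in SC (log2 change 5.31, SE 0.16, adjusted p = 2.69e-08). Tex101, a germ cell surface protein, was at 10.7, 9.42 and 11.3 CPM in RS against 189, 157 and 143 CPM in SC (log2 change -3.93, SE 0.14, adjusted p = 4.09e-08). The markers thus followed the labels, although Ccna1 and Aurka, counted among the spermatocyte markers, did not pass the thresholds and had log2 changes of 0.50 and 0.52.

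**Figure D1:**
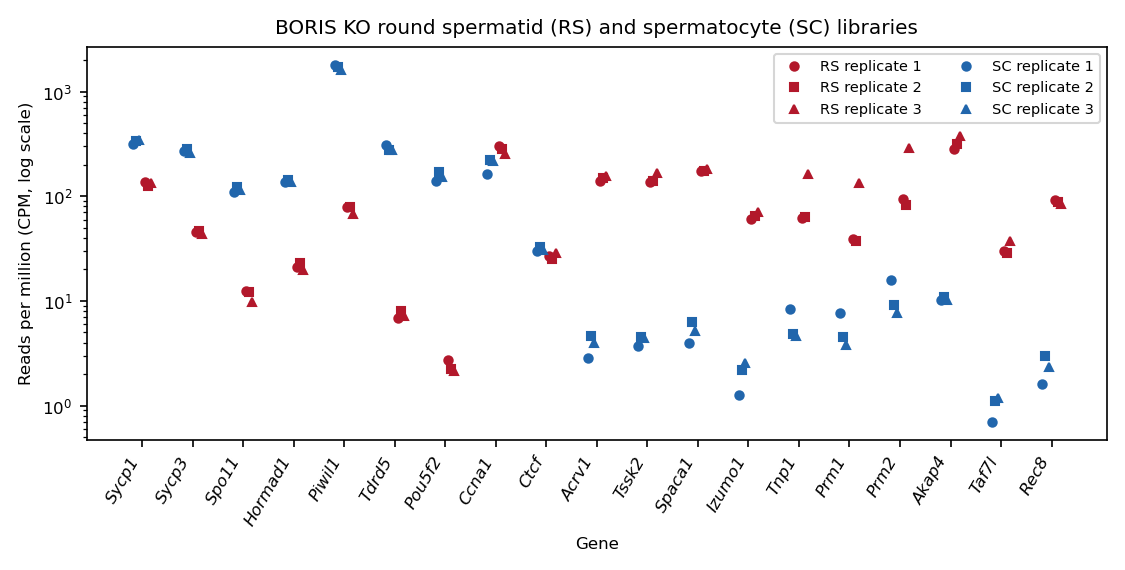
CPM (log axis) of 19 genes in each BORIS KO library, with RS in red and SC in blue and a symbol for each replicate. The SC values of Sycp3, Piwil1, Tdrd5 and Pou5f2 lie above all RS values and the RS values of Acrv1, Tssk2 and Spaca1 above all SC values, while the RS replicate 3 values of Tnp1, Prm1 and Prm2 lie above those of the other RS libraries.

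Promoter sequence is shown for 6 genes whose values are given below. The first 4 had a peak of BORIS in WT male germ cells at the promoter, so their sequence shows DNA that BORIS occupies when it is present, and the last 2 hold a full cyclic AMP response element (CRE), the site of CREM, a regulator of spermatid genes. Each line gives the 250 bases before the 5′ end of the gene, 5′ to 3′ on the gene's strand, in mm9. Capitals mark the bases inside the BORIS peak in Prss50, Scml2, Dstyk and Tex101, and the CRE in Izumo1 and Lrguk. The windows are chr9:110760221-110760470 (plus strand, Prss50), chrX:157554875-157555124 (plus, Scml2), chr1:134313780-134314029 (plus, Dstyk), chr7:25457070-25457319 (minus, Tex101), chr7:52876931-52877180 (plus, Izumo1) and chr6:33979198-33979447 (plus, Lrguk). None overlapped an annotated exon.
Prss50: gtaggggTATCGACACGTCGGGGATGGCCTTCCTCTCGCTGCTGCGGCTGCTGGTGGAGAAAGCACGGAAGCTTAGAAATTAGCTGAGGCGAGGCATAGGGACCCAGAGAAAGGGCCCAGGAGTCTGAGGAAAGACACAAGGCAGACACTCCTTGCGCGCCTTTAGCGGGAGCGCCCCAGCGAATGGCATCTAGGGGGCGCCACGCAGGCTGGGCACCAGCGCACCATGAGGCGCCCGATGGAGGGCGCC
Scml2: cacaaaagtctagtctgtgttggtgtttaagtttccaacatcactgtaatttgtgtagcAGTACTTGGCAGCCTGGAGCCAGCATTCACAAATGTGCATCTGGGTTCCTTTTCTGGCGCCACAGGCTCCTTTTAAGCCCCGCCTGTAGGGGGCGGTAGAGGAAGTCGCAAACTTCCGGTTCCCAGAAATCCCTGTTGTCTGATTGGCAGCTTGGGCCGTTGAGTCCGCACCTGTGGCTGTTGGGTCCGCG
Dstyk: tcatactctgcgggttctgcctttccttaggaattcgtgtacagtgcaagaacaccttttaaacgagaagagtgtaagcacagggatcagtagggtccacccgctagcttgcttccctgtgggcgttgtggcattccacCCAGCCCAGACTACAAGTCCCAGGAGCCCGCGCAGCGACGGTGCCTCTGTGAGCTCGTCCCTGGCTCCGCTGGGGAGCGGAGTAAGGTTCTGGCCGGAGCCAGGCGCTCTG
Tex101: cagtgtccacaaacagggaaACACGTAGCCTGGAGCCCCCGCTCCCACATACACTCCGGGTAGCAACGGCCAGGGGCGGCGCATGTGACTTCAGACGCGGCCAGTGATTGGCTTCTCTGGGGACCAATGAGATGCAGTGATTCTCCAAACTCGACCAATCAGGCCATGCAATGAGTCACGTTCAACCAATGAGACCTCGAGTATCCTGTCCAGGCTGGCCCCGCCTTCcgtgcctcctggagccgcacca
Izumo1: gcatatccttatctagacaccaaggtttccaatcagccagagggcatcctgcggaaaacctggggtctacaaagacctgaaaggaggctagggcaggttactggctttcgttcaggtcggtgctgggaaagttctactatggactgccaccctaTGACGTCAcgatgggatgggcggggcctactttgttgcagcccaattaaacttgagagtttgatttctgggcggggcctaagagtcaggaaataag
Lrguk: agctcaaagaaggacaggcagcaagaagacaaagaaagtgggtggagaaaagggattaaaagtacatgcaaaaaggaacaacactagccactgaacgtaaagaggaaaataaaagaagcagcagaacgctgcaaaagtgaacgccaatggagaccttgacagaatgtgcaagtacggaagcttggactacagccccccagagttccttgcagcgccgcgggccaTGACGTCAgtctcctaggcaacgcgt

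The genes of meiotic chromosome structure were mostly lower in RS. Of 10 synaptonemal complex and axis genes 7 fell (70.0%) and 1 rose (10.0%), beside 21.5% and 26.5% of all genes tested. The median log2 change of the list was -1.88. Sycp3, an axis protein, was at 45.3, 46.1 and 43.5 CPM in RS and 272, 280 and 260 CPM in SC (log2 change -2.56, SE 0.052, adjusted p = 1.71e-09). Sycp1, the transverse filament of the complex, was at 137, 125 and 133 CPM in RS and 318, 334 and 341 CPM in SC (log2 change -1.31, SE 0.057, adjusted p = 6.07e-08). Tex12 of the central element fell furthest in the list, from 17.8, 17.5 and 16.1 CPM in SC to 1.01, 1.25 and 1.55 CPM in RS. Syce2, another central element protein, was the member that rose, from 13.1, 13.2 and 12.2 CPM to 28.7, 27.6 and 35.6 CPM.

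The 23 recombination genes measured did not move one way: 10 fell (43.5%) and 5 rose (21.7%), beside 21.5% and 26.5% of all genes tested. With one spread over all 4 genotypes 2 rose. Spo11, which makes the DNA breaks that start recombination, was at 111, 123 and 116 CPM in SC and 12.4, 12.1 and 9.71 CPM in RS, and Spata22, which is needed for break repair, went from 30.3, 32.2 and 31.2 CPM to 0.636, 0.444 and 0.647 CPM. Their log2 changes were -3.33 (SE 0.084) and -5.74 (SE 0.14). Mlh3, a mismatch repair protein of crossover sites, was at 108, 109 and 111 CPM in SC and 14.5, 15.9 and 13.0 CPM in RS. The members that rose were Tex15, Tex11, Mei4, Prdm9 and Dmc1. Tex15, known from break repair and transposon silencing, was at 3.17, 5.74 and 5.67 CPM in SC and 156, 168 and 164 CPM in RS (log2 change 5.09, SE 0.21, adjusted p = 1.09e-07). Dmc1, the meiotic strand exchange protein that acts early in prophase, was low in both cell types, at 0.21, 0.296 and 0.147 CPM in SC and 1.63, 1.62 and 2.67 CPM in RS.

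Of the 27 cell cycle genes 10 were lower (37.0%) and 7 higher (25.9%) in RS (4 higher with one spread over all 4 genotypes). Over all genes tested 21.5% were lower and 26.5% higher, so the share that rose was near that of all genes. Cdk2 fell from 165, 163 and 156 CPM in SC to 10.8, 11.3 and 11.9 CPM in RS, and Ccne2, a cyclin E, from 55.6, 58.7 and 56.7 CPM to 2.53, 2.49 and 4.35 CPM. Ccnd3, a D-type cyclin, rose from 1.32, 2.32 and 2.00 CPM to 74.6, 71.9 and 69.9 CPM (log2 change 5.28, SE 0.16, adjusted p = 2.02e-08). Ccnb1, the mitotic cyclin B, rose from 10.7, 13.9 and 13.3 CPM to 65.2, 65.2 and 54.5 CPM. Of the 15 cohesin subunits and regulators 5 rose (33.3%) and 2 fell (13.3%). Rec8, the meiotic kleisin, was at 1.61, 3.01 and 2.32 CPM in SC and 92.0, 88.7 and 83.7 CPM in RS (log2 change 5.26, SE 0.18, adjusted p = 4.56e-08). Its partners Smc1b and Stag3 did not pass the thresholds, with log2 changes of 0.37 and 0.16, and the shugoshin Sgol2 fell by 1.92 on the log2 scale.

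None of the 18 piRNA and germ granule genes tested rose, and 11 fell (61.1%), with a median log2 change of -1.28. Of all genes tested 26.5% rose and 21.5% fell. Piwil1, the Piwi protein of pachytene piRNAs, was at 1800, 1710 and 1610 CPM in SC and 78.9, 79.1 and 67.6 CPM in RS (log2 change -4.48, SE 0.074, adjusted p = 1.50e-09). Tdrd5, a Tudor protein of piRNA precursor processing, went from 310, 279 and 276 CPM to 6.87, 8.09 and 7.13 CPM. The other members that fell included Piwil2, Tdrd1, Mov10l1 and Pld6, all of the piRNA pathway. The germ granule helicases Ddx4 and Ddx25 did not pass the thresholds: Ddx4 was at 948, 954 and 879 CPM in RS and 815, 875 and 873 CPM in SC.

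Genes on the sex chromosomes that passed the filter on low counts were mostly called higher in RS. Of the 997 X-linked genes placed by the annotation 530 passed it, and 493 of these were called higher and 0 lower. The filter keeps a gene that is high in 1 group alone, and the 467 X-linked genes below it were not tested. With no filter beyond 1 count 523 of 799 were called higher and 0 lower, and with one spread over all 4 genotypes 296 of the 530. The median log2 change was 4.87, against medians from -0.202 to 0.0721 on the autosomes, where 18.6 to 28.0% of genes were called higher. X-linked genes took 0.479, 0.496 and 0.564% of all counts in RS and 0.0159, 0.0179 and 0.0174% in SC, and 329 to 367 of them reached 1 CPM in RS against 25 to 37 in SC. All 8 Y-linked genes tested were higher, with a median log2 change of 4.60, and 5 of them with one spread over all 4 genotypes. In WT the X took 0.857 to 0.922% of the counts in RS and 0.0153 to 0.0165% in SC, and the median X-linked log2 change was 5.45.

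**Figure D2:**
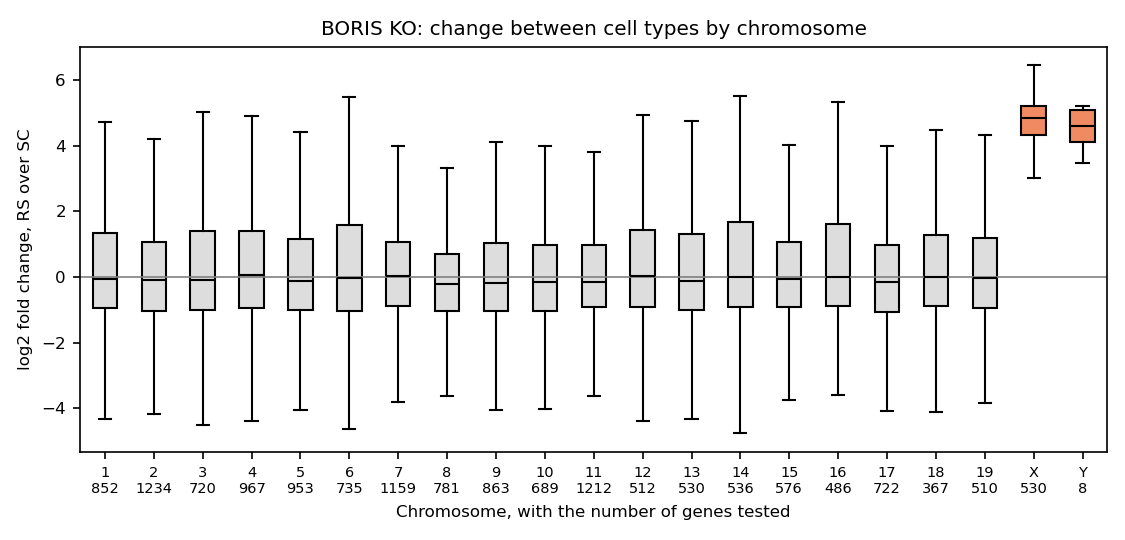
Box plots of the log2 fold change (RS over SC) of the genes tested on each chromosome in BORIS KO, with the number of genes under each name; boxes span the quartiles, the line is the median and outlying genes are not drawn. The medians of chromosomes X (4.87) and Y (4.60) lie above those of the 19 autosomes, which run from -0.202 to 0.0721.

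The X-linked genes that were highest in SC were low there. Akap4, the main protein of the fibrous sheath of the tail, was at 10.3, 11 and 10.3 CPM in SC and 281, 313 and 374 CPM in RS (log2 change 4.97, SE 0.14, adjusted p = 1.74e-08). Taf7l, a germ cell form of a TFIID subunit, was not among the 10 highest in SC. It was at 0.701, 1.12 and 1.18 CPM in SC and 30.0, 29.0 and 37.5 CPM in RS. Ndufa1, a subunit of respiratory complex I, was the exception among the 10 highest, with means of 5.61 CPM in SC and 3.32 CPM in RS (log2 change -0.73, adjusted p = 0.00225), and was not called. Of the 37 X-linked genes not called 24 had a log2 change above 1 and 6 had one below 0.

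Of 11 factors that act in silencing the sex chromosomes 8 were lower in RS (72.7%), 2 were higher (18.2%) and 1 was not called. Of all genes tested 21.5% were lower and 26.5% higher. Mdc1, which spreads the silencing signal from chromosome axes into the chromatin of the sex body, was at 992, 1040 and 1070 CPM in SC and 269, 271 and 247 CPM in RS (log2 change -1.95, SE 0.051, adjusted p = 4.42e-09). Topbp1, an activator of the kinase ATR, was at 148, 158 and 159 CPM in SC and 27.8, 22.6 and 23.4 CPM in RS. Scml2, a Polycomb group protein encoded on the X (its promoter is printed above), went the other way, from 0.953, 1.04 and 1.22 CPM to 15, 15.4 and 18.3 CPM, as did Brca1.

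Several X-linked genes of general function have autosomal copies that are used in male germ cells. All 7 X-linked parents tested were higher in RS (4 with one spread over all 4 genotypes), with a median log2 change of 4.66, and the 8th, Pdha1, was below the filter. Of all 530 X-linked genes tested 93.0% were called higher, with a median of 4.87, so the parents did not stand apart from the X. Rbmx, an RNA-binding protein of splicing, was at 0.168, 0.176 and 0.162 CPM in SC and 4.53, 5.56 and 5.63 CPM in RS. The 8 autosomal copies had a median of -0.208, with 2 higher and 2 lower. Pgk2, a glycolytic kinase, rose from 123, 155 and 143 CPM in SC to 397, 431 and 373 CPM in RS, and Pdha2 of pyruvate dehydrogenase fell from 286, 293 and 280 CPM to 94.2, 90.1 and 83.3 CPM. Reads of a parent gene and of its near-identical copy may be assigned to either, and how multiply mapped reads were counted is not given in the sources used here.

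Among 15 regulators of spermatid transcription 6 rose (40.0%) and 1 fell (6.67%), beside 26.5% and 21.5% of all genes tested. Rfx1, of the RFX family of ciliary gene activators, was at 2.83, 4.82 and 4.42 CPM in SC and 144, 143 and 133 CPM in RS (log2 change 5.14, SE 0.17, adjusted p = 3.77e-08). Fhl5, the coactivator of CREM known as ACT, rose from 0.939, 0.791 and 1.23 CPM to 27.1, 32.5 and 42.1 CPM, and Sox5 rose from 6.76, 8.73 and 8.98 CPM to 179, 179 and 215 CPM. Rfx2, Tbpl1 and Crem did not pass the fold threshold, with log2 changes of 0.30, 0.28 and 0.80. Tcfl5, a helix-loop-helix factor, fell by 1.01, which lay below 1 when libraries were scaled by another method (0.963 with RLE factors). Of 15 genes of RNA storage and translation control 5 fell (33.3%) and 2 rose (13.3%). Ptbp2, a splicing repressor of germ cells, was at 373, 382 and 376 CPM in SC and 74.1, 69.6 and 66.7 CPM in RS, and Paip2b, which binds poly(A)-binding protein, rose from 6.00, 5.94 and 5.69 CPM to 27.3, 28.0 and 26.5 CPM.

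The kinases and structural genes of the forming sperm head were mostly higher in RS. All 7 testis-specific serine kinase genes, including the kinase substrate Tsks, rose, with log2 changes from 4.00 to 5.18. Tssk2 was at 3.70, 4.56 and 4.44 CPM in SC and 136, 139 and 166 CPM in RS (log2 change 5.15, SE 0.14, adjusted p = 8.11e-09). Of 15 genes of the head cytoskeleton 11 rose (73.3%) and 1 fell (6.67%), with a median log2 change of 4.71. Of all genes tested 26.5% rose and 21.5% fell. Sun5, which holds the tail to the nucleus, rose from 2.54, 3.69 and 3.32 CPM to 104, 105 and 123 CPM. Lrguk, a protein of the manchette, was the member that fell, from 140, 147 and 144 CPM in SC to 54.7, 52.2 and 47.9 CPM in RS (log2 change -1.45, SE 0.051, adjusted p = 1.80e-08).

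Acrosome and gamete fusion genes fell into separate sets, with 13 of 26 higher in RS, 1 lower and 12 not called. Among the former, Spaca1, an acrosomal membrane protein, was at 3.97, 6.25 and 5.16 CPM in SC and 173, 175 and 182 CPM in RS (log2 change 5.13, SE 0.15, adjusted p = 1.84e-08), and Izumo1, the sperm ligand of the egg receptor, was at 1.26, 2.19 and 2.53 CPM in SC and 61.0, 64.7 and 70.5 CPM in RS. The proacrosin gene Acr was already at 306, 362 and 362 CPM in SC and stood at 494, 471 and 489 CPM in RS, a log2 change of 0.52 that missed the fold threshold. The members not called had log2 changes from about -0.33 (Adam2) to 0.93 (Spesp1). Gopc, a Golgi protein needed for the acrosome, fell from 140, 154 and 153 CPM to 17.4, 15.5 and 16.3 CPM. Both full CREs shown above lie in promoters of these sperm head genes, and of these Izumo1 rose and Lrguk fell.

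Genes of the tail showed the same division. Of 33 flagellum genes 15 rose (45.5%), 3 fell (9.09%) and 15 were not called, beside 26.5% and 21.5% of all genes tested. Odf1, an outer dense fiber protein, went from 7.22, 8.25 and 7.04 CPM in SC to 236, 248 and 267 CPM in RS (log2 change 5.09, SE 0.098, adjusted p = 1.71e-09). Rsph1, of the radial spoke head of the axoneme, went from 5930, 6480 and 6280 CPM to 2540, 2180 and 2270 CPM (log2 change -1.39, SE 0.061). Of 14 sperm ion channel and transporter genes 6 rose (42.9%) and 1 fell (7.14%). The pore subunits Catsper1, Catsper3 and Catsper4 of the sperm calcium channel rose by 4.97, 5.05 and 5.23 on the log2 scale, while Catsper2 was at 450, 552 and 539 CPM in SC and 632, 639 and 555 CPM in RS (log2 change 0.27, adjusted p = 0.00914).

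Of 14 genes of chromatin compaction 8 rose (57.1%), 2 fell (14.3%) and 4 were not called, beside 26.5% and 21.5% of all genes tested. The list had a median log2 change of 3.84, and RS replicate 3 stood above the other RS libraries for several of its genes. With no filter beyond 1 count 4 were called higher. Prm1, a protamine, was at 39.0, 37.8 and 135 CPM in RS and 7.61, 4.51 and 3.78 CPM in SC (log2 change 3.79, SE 0.63, adjusted p = 0.000812). Tnp1, a transition protein, was at 62.3, 63.0 and 165 CPM in RS and 8.30, 4.81 and 4.67 CPM in SC. Hils1, a spermatid linker histone, was closer between replicates, at 78.2, 84.5 and 93.1 CPM in RS and 2.65, 2.78 and 2.72 CPM in SC (log2 change 5.00, SE 0.11, adjusted p = 2.18e-09). The groups did not overlap for any of these, and RS replicate 3 had the highest value of each. H3f3b, a gene of the replacement histone H3.3, fell from 709, 735 and 687 CPM to 145, 139 and 183 CPM.

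All 10 markers of elongating spermatids, the stage after RS, were called higher in RS. Their summed level was 1690 to 2820 CPM in the RS libraries and 84.8 to 105 CPM in SC, none was at 0, and in RS replicate 3 their median was 1.05 above replicates 1 and 2 on the log2 scale. Without RS replicate 3 the count of called markers was 8 of 10 and the median log2 change of the compaction genes was 2.95 with 6 called higher. Prm1, Prm2, Tnp1, Tnp2 and Spem1 kept their direction but missed the p threshold when any 1 SC library was left out, which left 5 of the 10 markers and 4 compaction genes called higher. The part of elongating spermatids in these values was not tested.

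Energy metabolism genes moved in both directions. Of 14 germ cell isozyme genes 5 rose (35.7%) and 4 fell (28.6%), beside 26.5% and 21.5% of all genes tested. Gapdhs, the sperm form of a glycolytic dehydrogenase, was at 9.77, 10.2 and 10.3 CPM in SC and 229, 246 and 296 CPM in RS, and Aldoart2, a retrocopy of aldolase A, was at 4.01, 5.72 and 4.54 CPM in SC and 181, 186 and 180 CPM in RS. The glucose transporter Slc2a3 fell from 4130, 4180 and 3980 CPM to 647, 657 and 470 CPM (log2 change -2.77, SE 0.11, adjusted p = 6.25e-08). Ldhc, the testis lactate dehydrogenase, stood at 3690, 3740 and 3440 CPM in RS and 4380, 5050 and 4580 CPM in SC and was not called. Of 13 somatic isozyme genes tested 6 rose (46.2%), 4 of them X-linked, and 0 fell. With one spread over all 4 genotypes 1 was called higher. Among 74 cytosolic ribosomal protein genes 9 fell (12.2%) and 2 rose (2.7%), with a median of -0.464. Among 34 proteasome genes 7 fell (20.6%) and 1 rose (2.94%), with a median of -0.487. Neither list was lower more often than all genes tested (21.5%).

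**Figure D3:**
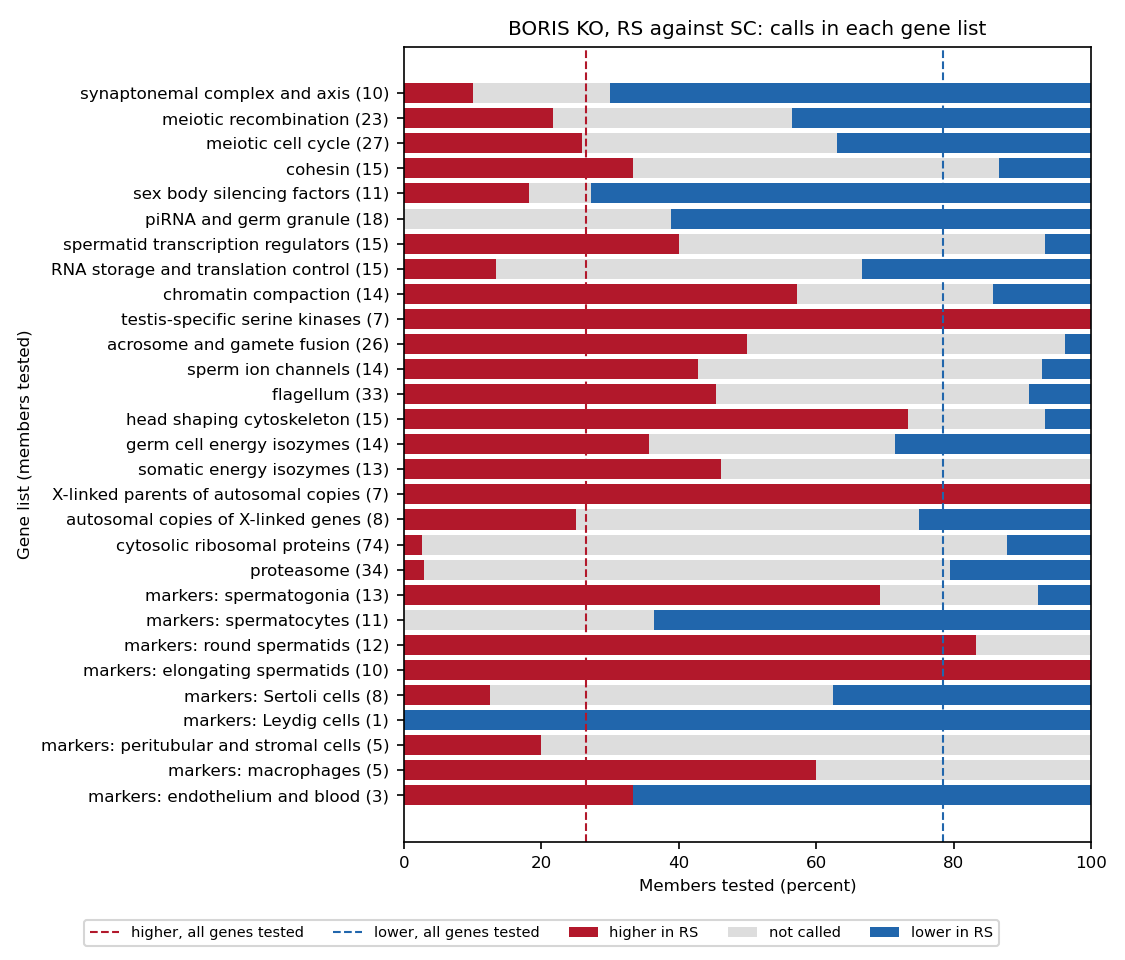
Percent of the tested members of each gene list that were higher in RS (red), not called (grey) or lower in RS (blue) in BORIS KO; dashed lines mark the shares over all genes tested, 26.5% higher (from the left edge) and 21.5% lower (from the right edge). The kinase, X-linked parent and elongating marker lists are wholly red, and the piRNA and spermatocyte marker lists hold no red.

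By size of change, the genes that rose most were 1700003F12Rik, 1700125D06Rik and Hipk4, taken among called genes with at least 50 CPM in RS and 10 counts in every SC library. Hipk4, a kinase of sperm head shaping, was at 2.19, 4.92 and 4.65 CPM in SC and 191, 167 and 163 CPM in RS (log2 change 5.49, SE 0.26, adjusted p = 2.60e-07). 1700003F12Rik, whose product has no role stated here, was at 1.37, 1.23 and 1.1 CPM in SC and 60.2, 58.1 and 58.1 CPM in RS (log2 change 5.60, SE 0.094). At the other end, Pou5f2, a POU factor of spermatocytes, was at 140, 172 and 152 CPM in SC and 2.72, 2.23 and 2.14 CPM in RS (log2 change -6.01, SE 0.11, adjusted p = 1.50e-09). Sap30, of the Sin3 histone deacetylase complex, fell from 56.4, 59.9 and 53.5 CPM to 1.99, 1.74 and 1.44 CPM, and Chst1, a sulfotransferase, from 214, 197 and 200 CPM to 6.97, 6.03 and 5.77 CPM. Of the genes with at least 50 CPM in RS and a log2 change above 1, 310 of 710 (43.7%) rose by more than 4 and 0 by more than 6. In WT 416 of 930 (44.7%) rose by more than 4 and 171 by more than 6. Whether RNA of RS in the SC libraries limited these rises was not tested.

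Markers of cells outside the germ line were near 0 or low, with exceptions. The Leydig cell list summed to 1.18 to 1.23 CPM in RS and 8.08 to 8.40 CPM in SC, carried by Star, a cholesterol carrier, at 0.982, 1.02 and 0.958 CPM in RS and 7.61, 8.17 and 8.22 CPM in SC, while Insl3, Lhcgr and Cyp11a1 stayed under 0.1 CPM in every library. The Sertoli cell list summed to 14.3 to 16.3 CPM in RS and 13.0 to 27.7 CPM in SC, and the highest value was that of SC replicate 1, in which Clu was at 11.9 CPM against 2.75 and 2.69 CPM. Of 5 macrophage markers tested 3 were higher in RS (60.0%) and 0 lower, beside 26.5% and 21.5% of all genes tested. With one spread over all 4 genotypes 1 was called higher. The macrophage list summed to 84.5 to 104 CPM in RS and 4.11 to 4.29 CPM in SC, most of it from Aif1. Aif1 was at 80.8, 85.3 and 101 CPM in RS and 2.99, 3.33 and 3.31 CPM in SC, while C1qa was at 0 in 5 of 6 libraries. The stromal list summed to 5.63 to 6.4 CPM in RS and 4.70 to 4.86 CPM in SC, and the endothelium and blood list to 3.58 to 4.42 and 3.36 to 3.70 CPM, with both hemoglobin genes at 0 in all 6 libraries. Of 13 spermatogonial markers tested 9 were higher in RS (69.2%) and 1, Id4, was lower (7.69%). The number called higher was 5 without SC replicate 2 and 2 with one spread over all 4 genotypes. Of the 14 markers 3 reached 1 CPM in each SC library and 8 or 9 in the RS libraries, and the filter keeps a gene high in 1 group alone. The summed level went the other way, at 39.9 to 59.7 CPM in RS and 147 to 156 CPM in SC, where most of it came from Id4. Dmrt1, a regulator of the mitosis to meiosis decision, was at 0.435, 0.285 and 0.265 CPM in SC and 7.87, 8.62 and 16.7 CPM in RS, again highest in RS replicate 3.

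To see where CTCF and BORIS bind in the WT germ line, genes were grouped by the peaks within 1 kb of an annotated start in the lists of 34625 CTCF and 7652 BORIS peaks. Genes with no peak were called higher in RS in 29.6% of 9236 cases and lower in 20.0%. With peaks of both factors the shares were 19.7% and 24.6% of 2165 genes, with BORIS alone 20.1% and 25.3% of 593, and with CTCF alone 19.7% and 23.4% of 2947. These groups differ in other ways than their peaks, since 9236 of 15303 genes without a peak and 2165 of 2391 with peaks of both factors passed the filter, and the shares are a description.

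Prss50, a testis serine protease, had peaks of CTCF (chr9:110760172-110760848) and BORIS (chr9:110760228-110760640) over its start. In BORIS KO it was counted at 1.27, 1.20 and 1.76 CPM in RS and 0.0421, 0.0439 and 0.0147 CPM in SC, from 92, 97 and 136 reads against 3, 4 and 1. Tex101 had a BORIS peak alone (chr7:25457092-25457299) and fell, as given above. The full CRE, TGACGTCA, searched on both strands from 250 bases before to 50 after the 5′ end, was in 3.04% of the 14941 tested genes with a window, in 2.7% of those higher and 2.92% of those lower in RS. The letters GTTGCC, the core of the X-box bound by RFX factors, were in 13.1%, 14.4% and 11.6% of these windows. The CTCF consensus, searched as a strict core pattern, was in 0.622%, 0.389% and 0.652%. Prss50, Scml2 and Dstyk have CTCF peaks at their promoters but did not hold this pattern. Its absence therefore does not show that a promoter lacks a CTCF site.

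The change between the cell types was then compared with that in WT by the interaction of cell type and genotype. Over the 4006 genes called higher in BORIS KO and also tested in WT the median log2 change was 3.84 in BORIS KO and 4.10 in WT, and 4000 had the same sign. Over the 3317 called lower the medians were -1.77 and -1.88, and 3296 had the same sign. The change was called lower in BORIS KO than in WT for 1717 of 16519 genes (10.4%) and higher for 496 (3%), at an adjusted p below 0.05 in edgeR. Of those called lower, 684 were among the genes that rose between SC and RS in BORIS KO and 259 among those that fell. The split depended on scaling: 22.4% of the calls were higher in BORIS KO with TMM scaling and 61.9% (1535 higher, 944 lower) with total counts alone, which moved the median of all genes from -0.0648 to 0.123. The counts also rested on single WT libraries, with 8 higher and 9 lower without WT SC replicate 2 and 3326 and 2407 without WT RS replicate 1, and with one spread over all 4 genotypes they were 0 and 6. Other libraries moved them by over 1.5 times in at least 1 direction: 342 and 616 without WT RS replicate 2, 337 and 608 without WT RS replicate 3, and 190 and 1023 without WT SC replicate 1. Leaving out a BORIS KO library gave 129 to 588 higher and 917 to 1839 lower. The labels give no batch of library preparation, so genotype and preparation cannot be told apart.

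**Figure D4:**
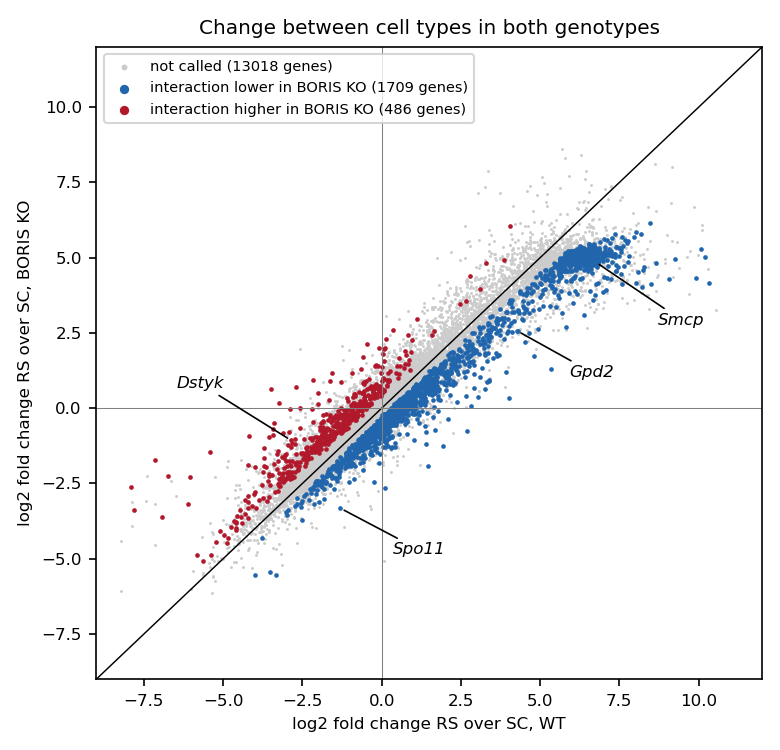
Each point is 1 of 15213 genes, with its log2 fold change (RS over SC) in WT on the horizontal and in BORIS KO on the vertical axis and a line where both are equal; 1709 genes have an interaction called lower in BORIS KO (blue), 486 one called higher (red) and 13018 neither (grey). Spo11, Gpd2 and Smcp lie below the line and Dstyk above it.

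Spo11 had the smallest adjusted p of the interaction. It was at 12.4, 12.1 and 9.71 CPM in BORIS KO RS and 111, 123 and 116 CPM in SC, and in WT at 59.3, 59.8 and 65.3 CPM in RS and 170 and 154 CPM in SC. The difference between the log2 changes was -2.07 (edgeR adjusted p = 4.88e-05) and ran from -2.12 to -1.79 in the 19 alternatives, in each of which it was called. The gene lies 100 kb from Ctcfl on chromosome 2 (chr2:172803201-172819077), and a CTCF peak (chr2:172805264-172805945) and a lower BORIS peak (chr2:172805433-172805551, height 16 against 1016) lie inside it, near the annotated start of shorter transcripts. Gpd2, the mitochondrial glycerol-3-phosphate dehydrogenase, was the other named gene called in all alternatives. It was at 174, 189 and 219 CPM in RS and 28.0, 35.7 and 36.8 CPM in SC, and in WT at 247, 242 and 246 CPM in RS and 13.4 and 13.5 CPM in SC (difference -1.76, adjusted p = 0.00108). In Gpd2 the genotypes stood apart in both cell types, higher in BORIS KO in SC and lower in RS.

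Other genes rose less in BORIS KO than in WT, and for Tmem225 and Kat2b the SC values were also higher in BORIS KO. The part of RS RNA in the SC libraries in such differences was not tested. Tmem225, which encodes a sperm membrane protein, was at 86.2, 92.6 and 79.8 CPM in RS and 5.76, 6.87 and 5.98 CPM in SC, against 100, 116 and 123 CPM and 1.93 and 2.08 CPM in WT (difference -2.13, adjusted p = 0.000179). Kat2b, the acetyltransferase PCAF, was at 35.1, 35.7 and 33.6 CPM in RS and 1.19, 1.61 and 1.73 CPM in SC, against 70.1, 67.5 and 69.9 CPM and 0.848 and 0.774 CPM (difference -2.0, adjusted p = 0.000594). Galnt7, a mucin-type glycosyltransferase, rose by 1.57 in BORIS KO (difference -1.79, adjusted p = 0.000237). In the other direction Dstyk, a kinase whose promoter is printed above, was at 7.00, 6.15 and 5.40 CPM in RS and 13.4, 13.5 and 12.6 CPM in SC, against 1.45, 1.27 and 1.24 CPM and 10.3 and 10.2 CPM in WT (difference 1.75, adjusted p = 0.00108).

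**Figure D5:**
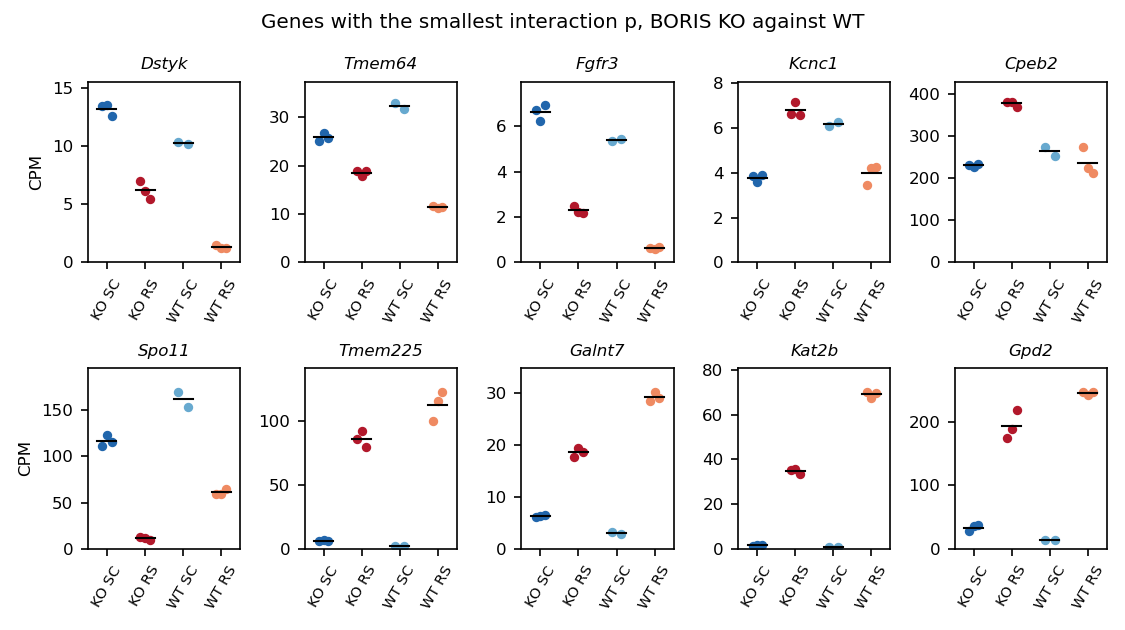
CPM of the 5 genes with the smallest interaction p in each direction, in BORIS KO and WT SC and RS libraries; points are libraries and bars their means. Spo11 in RS lies between 9.71 and 12.4 CPM in BORIS KO and between 59.3 and 65.3 CPM in WT, and Dstyk in RS between 5.40 and 7.00 and between 1.24 and 1.45 CPM.

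Over all genes tested 10.4% had a change called lower in BORIS KO than in WT and 3% a higher one. Of the synaptonemal complex and axis genes 7 of 10 (70.0%) were called lower and 0 higher, and of the spermatocyte markers, which share members with them, 7 of 11 (63.6%) and 0. The counts were 3 lower of 7 serine kinase genes (42.9%), 6 of 14 ion channel genes (42.9%), 5 of 15 cohesin genes (33.3%), 5 of 15 head cytoskeleton genes (33.3%), 8 of 26 acrosome genes (30.8%) and 10 of 33 flagellum genes (30.3%), with 1 higher in each of the last 2 lists and 0 in the others. In the chromatin compaction list 1 of 14 was lower (7.14%), and of the ribosomal protein genes 2 of 75 were lower (2.67%) and 4 higher. These genes did not share a direction of change between the cell types: Hormad1, an axis protein, fell from 137, 144 and 138 CPM in SC to 21.3, 22.9 and 19.6 CPM in RS, against 276 and 215 to 71.9, 75.4 and 92.7 CPM in WT (difference -1.21, adjusted p = 0.00333). Smcp, a mitochondrial capsule protein of sperm, rose from 17.3, 18.5 and 20.5 CPM to 441, 434 and 712 CPM, against 25.4 and 20.7 to 1770, 2830 and 2370 CPM in WT (difference -1.95, adjusted p = 0.00521). Both calls were lost with the spread estimated over all 4 genotypes, as were 44 of the 46 named genes called in the interaction. On the X 93 of 606 genes were lower (15.3%) and 2 higher. The summed level of the spermatocyte markers was 3680 to 3760 CPM in BORIS KO RS and 5470 to 5790 CPM in WT RS, and 5800 to 6320 CPM against 9070 to 10300 CPM in SC. The summed level of the elongating spermatid markers was 1690 to 2820 CPM in BORIS KO RS and 3430 to 4680 CPM in WT RS. The part of either in these differences was not tested.

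Against CM, which carries the same Boris deletion with 1 copy of Ctcf, edgeR called 0 of 16244 genes in either direction, with 2543 genes at an unadjusted p below 0.05 and a smallest adjusted p of 0.189. DESeq2 called 688 higher and 90 lower in BORIS KO. Without CM RS replicate 1 edgeR called 630 and 307, without CM SC replicate 1 it called 572 and 68, and without CM RS replicate 2 it called 7 and 13.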

How the data were processed

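RNA of purified RS and SC was sequenced from poly(A)-selected single-end libraries, and per the study's methods the authors aligned reads to mm9 with STAR at default settings and deposited raw counts per gene. The counting tool, annotation and strand setting are not given in the sources used here. The deposited ChIP-seq peak lists give each peak's position and signal height, the latter not used in any test, and were made by the authors with Bowtie2 (mm9), MACS and PeakSplitter from germ cells.

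Counts were fitted with edgeR 4.0.16 (R 4.3.3): filterByExpr (minimum count 10, total 15), TMM scaling and the quasi-likelihood F test, 2-sided, with Benjamini-Hochberg adjustment. RS and SC of BORIS KO alone entered the main fit, with calls at adjusted p below 0.001 and fold above 2. Interactions with genotype used 0.05 and no fold threshold. Alternatives were DESeq2 1.42.0, other scalings, filters and thresholds, a replicate block and leaving out each library. The code was tested on simulated counts. Gene starts are from GENCODE vM1. Of 23284 genes 21897 matched 1 position.

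Genes named are the leading members of each list, genes the study names, the 10 largest called changes in each direction (at least 50 CPM in the higher group, 10 counts in every library of the lower) and the 5 smallest interaction p-values in each direction. Other genes named, whether exceptions or further examples of a list, were chosen after their values were seen. Comparison and lists were chosen with earlier results of these data known.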

Additional observations from a re-analysis of the deposited data

Results flagged for a closer look

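The change between RS and SC differed between BORIS KO and WT by the interaction test of edgeR for 496 genes in the higher and 1717 in the lower direction, and for 46 of the genes followed by name (10 higher, 36 lower), with adjusted p from 4.88e-05 to 0.0461. Values are the log2 change in BORIS KO minus that in WT.

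Among meiotic genes the difference was called lower for Spo11 (-2.07), Hormad1 (-1.21), Sycp1 (-1.16), Sycp3 (-0.671), Syce1 (-0.335), Tex12 (-1.27), Rec8 (-1.46), Smc1b (-0.929) and Scml2 (-1.26). For regulators and RNA-binding proteins it was called lower for Crem (-0.863), Taf7l (-0.908), Sox30 (-0.662), Paip2b (-0.545) and Ddx4 (-0.394). In the sperm head and kinase lists it was called lower for Acrv1 (-0.961), Spaca1 (-1.15), Tssk2 (-0.696) and Lrguk (-0.721). In the tail and its channels these were Akap3 (-0.654), Akap4 (-0.967), Odf1 (-0.757), Smcp (-1.95), Catsper1 (-1.0) and Catsper3 (-0.896). The remaining genes called lower were Gpd2 (-1.76), Gapdhs (-0.89), Cetn2 (-1.64), Psma6 (-0.473), Rpl10l (-0.538), Tmem225 (-2.13), Galnt7 (-1.79), Kat2b (-2.0), Iqca (-2.27), Alg13 (-1.29), BC061194 (-1.12) and 1700029J11Rik (-1.14).

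It was called higher for Dstyk (1.75), Kit (1.56), Fgfr3 (1.46), Kcnc1 (1.38), Tmem64 (0.902), Cpeb2 (0.752), Slc2a3 (0.538), 4930579G24Rik (0.53), Ldha (0.409) and Piwil1 (0.357). Spo11 and Gpd2 were called in each of the 19 alternatives, 44 of the 46 were not called with one spread over all 4 genotypes and 37 were not called without WT SC replicate 2. No explanation was tested. Groups of 3 libraries are too small for the test of single libraries that stand apart.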

How the results depend on the processing

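The counts of genes called between RS and SC in BORIS KO moved by under 1.5 times with RLE factors, total counts, DESeq2, no filter, autosomal scaling and any 1 library left out (3512 to 4181 higher, 3081 to 3392 lower). They moved further with one spread over all 4 genotypes (2105 higher, 2180 lower), with no fold threshold (4999 lower) and with a fold above 16 (1916 and 107). Scaling by total counts shifted the median log2 change of all genes from 0.00337 to 0.11. Of 150 genes followed by name 28 lost their call in some alternative, 17 of them only with one spread over all 4 genotypes. The uncalled log2 change of Rpl10l turned to 0.0157 with total counts only, and that of Sox30 ran from -0.116 (without BORIS KO RS replicate 3) to 0.202 with 1 library left out.

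For the interaction with WT the counts were 1535 higher and 944 lower with total counts only, 1070 higher with DESeq2, 0 and 6 with a spread shared by the 4 genotypes, 164 and 604 with a fold above 2, and 8 to 3326 higher and 9 to 2407 lower with 1 library left out. For the interaction with CM they were 688 and 90 with DESeq2, 138 and 13 with that shared spread, and 0 to 630 and 0 to 307 with 1 library left out. BORIS KO RS replicate 3 and SC replicate 1, which stood apart within their cell types, were also left out together. In this alternative, chosen after seeing the data, 447 were higher and 1824 lower than in WT. The cause was not tested.

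Same-numbered RS and SC libraries did not deviate together (correlations -0.308, -0.078 and -0.0941). With 3 libraries of each cell type these values cannot say whether same-numbered libraries came from the same preparation. With a replicate block 3749 genes were called higher and 3149 lower between RS and SC, and 28 and 372 in the interaction with WT. With it 3 of 14 chromatin compaction genes and 5 of 10 elongating spermatid markers were called higher. Counting does not say which exons of Ctcfl were read, WT SC has 2 libraries, and genes of low count, such as X-linked genes in SC, have imprecise changes.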

Other observations

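Genes around Ctcfl on chromosome 2 were read for the interaction with WT, a choice made after their values were seen. Of 24 genes tested within 1 Mb, 3 had a change called lower in BORIS KO than in WT and 2 a higher one, that is 12.5% and 8.33%, beside 10.4% and 3% of all 16519 genes tested. The lower ones were Spo11 (-2.07 on the log2 scale), 1700029J11Rik (-1.14, edgeR adjusted p = 0.0303) and Stx16 (-0.63, adjusted p = 0.0256), a syntaxin of the Golgi. The higher ones were 1700010B08Rik (0.53, adjusted p = 0.0217) and Npepl1 (0.71, adjusted p = 0.0444), an aminopeptidase-like protein.

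Of the spermatogonial markers, Kit, the stem cell factor receptor, was at 0.252, 0.275 and 0.265 CPM in SC and 4.19, 4.07 and 8.14 CPM in RS, and Stra8, a retinoic acid target of meiotic entry, at 0.112, 0.264 and 0.235 CPM in SC and 2.20, 2.75 and 4.06 CPM in RS. The study states that Kit has a truncated transcript after meiosis. A count per gene does not tell it from the full-length one, so Kit in RS need not mark spermatogonia. Id4 stood at 139, 148 and 139 CPM in SC and 14.6, 12.7 and 13.7 CPM in RS. RS replicate 3 was the highest RS library for Kit and Stra8 but not for Id4.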
